A study of Mus musculus with 4 samples.

Results

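Keratins form a family of cytoskeletal proteins, and their genes are described here in cells sorted from the trachea and the stomach of reporter mice. The genes were chosen by symbol and annotated type: every protein-coding gene named Krt with a number and at most 1 letter was taken, which gave 54 of the 48709 genes in the table and of its 22018 protein-coding genes. They comprised 28 type I and 26 type II genes. Of the type II genes, Krt74 is protein-coding in the deposited data but a transcribed pseudogene in the annotation used for gene lengths (GENCODE vM21). Of the 54 genes, 23 reached 50 normalized counts in at least 1 library, 22 were listed at 0 in all 4 libraries, and the other 9 lay above 0 with 10 normalized counts at most.

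A keratin filament is built from dimers of 1 acidic type I and 1 basic type II protein, so that an epithelial cell makes members of both types. Simple epithelia, such as the glandular lining of the stomach, are known for the type II keratins Krt7 and Krt8 with the type I keratins Krt18 and Krt19. Basal cells of the airway and of stratified epithelia are known for the type II keratin Krt5 with the type I keratins Krt14, Krt15 and Krt17, and the layers above them replace these with pairs such as Krt4 and Krt13 in moist epithelia or Krt1 and Krt10 in skin. The tracheal epithelium is pseudostratified and rests on basal cells, whereas the stomach of the mouse carries a glandular epithelium and, in the forestomach, a keratinized squamous one.

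RNA-seq was performed on EGFP-positive and Tomato-positive cells of C57BL/6 mice that carried Tas2r143-CreERT2 together with the reporter allele Rosa26flox-mT-stop-flox-mG. All mice received tamoxifen for 5 days and were analysed 5 days after the final dose, and all carried both the transgene and the reporter allele, so the Tomato-positive cells are cells without EGFP from treated reporter mice and not cells of untreated mice. CreERT2 was driven by the Tas2r143 promoter from a bacterial artificial chromosome, and EGFP marks cells in which that promoter was active and their progeny. The gate for EGFP-positive cells took live (DAPI-negative) cells with EGFP. The gate for Tomato-positive cells took live cells with Tomato and without EGFP that also stained for EpCAM, an epithelial surface protein that the other gate did not require. Cells were pooled from 3 mice of 1 transgenic line into 1 library for each sort and tissue, which gave 4 libraries and no replicate of any group.

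The values are normalized counts, that is, reads per gene divided by a factor for each library. The libraries summed to between 9979296 and 15433150 normalized counts, with the tracheal EGFP-positive cells lowest and 1 read worth 1.61 normalized counts there and 0.786 to 0.816 in the other 3 libraries. Sample titles and tissue fields name opposite tissues for every library, and the titles, which match the column names, were followed. Under the titles, the 3 club cell markers of the airway summed to 17421 and 483341 normalized counts in tracheal EGFP-positive and Tomato-positive cells and to 1 and 69 in the stomach, whereas the 4 gastric pit cell markers summed to 15, 12, 105904 and 882574. The 6 markers of tuft cells, the chemosensory cells of these epithelia, were each more than 4-fold higher in EGFP-positive cells of both tissues. Among all measured genes, 25.2% of 10523 in the trachea and 14.8% of 11094 in the stomach were higher by 4-fold or more. The sum of 5 B and plasma cell markers was also higher in EGFP-positive cells, with 19332 against 964 in the trachea and 685365 against 36932 in the stomach. Where values of both sorts stand side by side, that of EGFP-positive cells comes first.

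All 27 keratin genes on chromosome 11 encoded type I keratins (GRCm38, chr11:99232761-100269871). The 27 genes on chromosome 15 were of type II with 1 exception, the type I gene Krt18 (chr15:101347444-102032027). Krt18 lies next to the gene of its partner Krt8 at the end of the type II cluster, with 23.697 kb between them and opposite strands. To show the start regions of genes from the simple, basal and stratified classes, windows of 300 bases, from 250 before to 50 after the annotated start, were copied from RefSeq (GRCm38.p6) for the simple keratin genes Krt8 (chr15:102004293-102004592, minus strand) and Krt18 (chr15:102027966-102028265, plus strand), the basal keratin gene Krt5 (chr15:101712856-101713155, minus strand) and the stratified keratin gene Krt13 (chr11:100121517-100121816, minus strand). Capitals mark matches to the motifs searched on both strands, which were TATAAA (the TATA box), TGANTCA (the AP-1 site), GGGCGG (the GC box) and ATGCAAAT (the octamer).
Krt8: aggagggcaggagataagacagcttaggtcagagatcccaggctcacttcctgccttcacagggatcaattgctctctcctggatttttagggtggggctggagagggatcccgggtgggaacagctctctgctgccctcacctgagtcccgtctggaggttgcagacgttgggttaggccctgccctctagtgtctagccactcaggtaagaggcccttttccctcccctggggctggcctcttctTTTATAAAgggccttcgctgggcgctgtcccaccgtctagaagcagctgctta
Krt18: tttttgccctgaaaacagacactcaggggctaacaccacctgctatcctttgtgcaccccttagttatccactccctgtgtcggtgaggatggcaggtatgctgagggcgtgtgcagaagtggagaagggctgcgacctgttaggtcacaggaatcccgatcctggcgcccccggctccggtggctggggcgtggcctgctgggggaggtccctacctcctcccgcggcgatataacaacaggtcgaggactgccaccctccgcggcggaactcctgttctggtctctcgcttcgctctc
Krt5: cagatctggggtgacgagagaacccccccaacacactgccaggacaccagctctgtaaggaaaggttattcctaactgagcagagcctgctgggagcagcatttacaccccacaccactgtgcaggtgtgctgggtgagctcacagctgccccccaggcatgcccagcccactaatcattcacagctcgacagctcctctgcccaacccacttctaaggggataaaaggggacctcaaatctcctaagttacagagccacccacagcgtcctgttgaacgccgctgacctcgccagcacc
Krt13: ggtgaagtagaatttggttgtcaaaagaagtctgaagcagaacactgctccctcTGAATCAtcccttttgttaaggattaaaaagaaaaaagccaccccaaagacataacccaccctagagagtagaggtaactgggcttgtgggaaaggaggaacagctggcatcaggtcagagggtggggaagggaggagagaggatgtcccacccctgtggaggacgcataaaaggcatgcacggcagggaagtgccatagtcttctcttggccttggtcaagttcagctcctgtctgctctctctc

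The window of Krt8 held a TATAAA match on each strand, overlapping each other. The window of Krt13 shown above held 1 TGANTCA match beginning at position -196 from the start. The windows of Krt18 and Krt5 held none of the 4 motifs. Of all 32851 windows of this length, 13.6% held TATAAA, 7.81% TGANTCA, 35.7% GGGCGG and 1.74% ATGCAAAT. Windows were found for 36 of the 54 keratin genes, and of these 37 windows 19 held TATAAA, 2 TGANTCA, 2 GGGCGG and none ATGCAAAT. Krt7 was the keratin gene with several GC boxes, 4 in its window. Genes with a window included both highly expressed keratins and keratins listed at 0, such as Krt76, which also held TATAAA. A match is a string of letters and not a tested binding site.

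Of all normalized counts, keratins made up 1.34% in tracheal EGFP-positive cells, 2.4% in tracheal Tomato-positive cells, 1.95% in gastric EGFP-positive cells and 0.685% in gastric Tomato-positive cells. The keratins that made up these sums were of different kinds. Divided by exon length, so that genes can be compared within a library, the 7 simple keratins held 98.5% of the keratin level in tracheal EGFP-positive cells, 99.9% in gastric EGFP-positive cells and 99.7% in gastric Tomato-positive cells. In tracheal Tomato-positive cells they held 14.5%, while the 4 basal keratins held 66.3% and the 16 stratified keratins 18.6%. Krt18 led in 3 libraries with 67.0% (EGFP, trachea), 80.2% (EGFP, stomach) and 55.8% (Tomato, stomach) of the keratin level. In tracheal Tomato-positive cells Krt15 led with 31.3%, and the suprabasal keratin Krt4 held 12.5%. The number of keratin genes at 50 normalized counts or more was 12 in tracheal EGFP-positive and 20 in tracheal Tomato-positive cells, and 6 and 9 in the stomach.

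**Figure D1:**
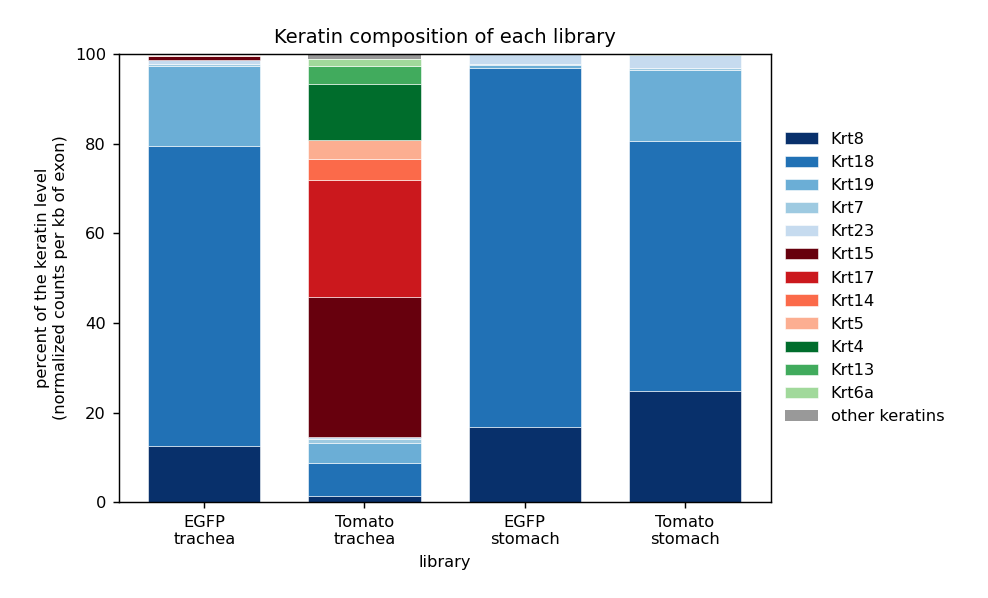
Share of each keratin gene in the summed keratin level (normalized counts per kb of exon, in percent) of the 4 libraries, 1 library per bar, with simple keratins in blue, basal keratins in red and Krt4, Krt13 and Krt6a in green. Krt18 forms the largest block in 3 libraries, whereas in tracheal Tomato-positive cells the basal keratins held 66.3% of the level.

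Krt18, the main type I keratin of simple epithelia, was the keratin with the highest level in both EGFP libraries. It stood at 79635 normalized counts in tracheal EGFP-positive and 20834 in tracheal Tomato-positive cells, an EGFP to Tomato ratio of 3.82 (95% interval 3.77 to 3.88). In the stomach it stood at 199950 and 51187, a ratio of 3.91 (3.87 to 3.94). The EGFP library was therefore the higher one in both tissues, by close to 4-fold, while the level itself was 2.51-fold lower in tracheal EGFP-positive cells than in those of the stomach. Intervals of ratios are exact binomial intervals on estimated reads, and since PCR copies were counted without molecular identifiers they cover counting error only. By level per kb Krt18 held rank 2 of all genes in tracheal EGFP-positive cells and rank 5 in those of the stomach, against rank 42 and rank 18 in the Tomato libraries.

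Krt8, the type II partner of Krt18, stood at 20374 and 5185 normalized counts in tracheal EGFP-positive and Tomato-positive cells and at 56723 and 31049 in those of the stomach. It was higher in EGFP-positive cells of both tissues, with a ratio of 3.93 (3.81 to 4.05) in the trachea and 1.83 (1.80 to 1.85) in the stomach, and the intervals of these ratios did not overlap. The Tomato libraries differed more between tissues than the EGFP libraries, with Krt8 5.99-fold lower in the trachea among Tomato-positive cells and 2.78-fold lower among EGFP-positive cells. About 5.16% of the exon bases of Krt8 are shared with another gene in GENCODE vM21. Reads there were left out if the annotation used by the authors also holds that gene, which was not checked.

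Krt19, a small type I keratin of simple and some basal epithelial cells, stood at 27306 and 15869 normalized counts in the trachea and at 2033 and 18816 in the stomach. Gastric EGFP-positive cells were the low library, and the other 3 lay within 15869 to 27306. The direction of the sort difference was thus opposite in the 2 tissues, with a ratio of 1.72 (1.69 to 1.76) in the trachea and a level 9.26-fold lower (8.88 to 9.64) in gastric EGFP-positive cells. Between the EGFP libraries Krt19 was 13.4-fold higher (12.9 to 14.0) in the trachea, whereas the ratio between the Tomato libraries was 0.843 (0.827 to 0.860).

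Krt7, a type II keratin of ducts and other simple epithelia, stood at 2356 and 12875 normalized counts in the trachea and at 1065 and 1345 in the stomach. Tracheal Tomato-positive cells were the high library. In that tissue the level was 5.46-fold lower (5.18 to 5.77) in EGFP-positive cells, while in the stomach the ratio was 0.792 (0.737 to 0.852). Krt7 and Krt8, both type II genes of the simple class, therefore lay on opposite sides of 1 in each tissue. Of 4 mesothelial markers, Msln was at 586 and 12874 in the trachea, while Upk3b, Wt1 and Lrrn4 were at 0 in both tracheal libraries. Whether mesothelial cells contribute to the level of Krt7 was not tested.

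Krt23, a less studied type I keratin, stood at 1061 and 1150 normalized counts in the trachea and at 6188 and 2935 in the stomach. The ratio was 0.923 in the trachea, where its interval of 0.840 to 1.013 included 1, and 2.11 (2.03 to 2.19) in the stomach. Gastric EGFP-positive cells held the highest level, 5.83-fold above those of the trachea (5.38 to 6.32). Scaled to the same total, its log2 ratio in the trachea turned from -0.12 to 0.46, so its direction there depends on the scaling. The remaining simple keratins were low in every library. Krt20, a keratin of intestinal and gastric surface epithelium, was at 2 normalized counts in gastric Tomato-positive cells and at 0 elsewhere, and Krt80 reached 78 in tracheal Tomato-positive cells alone.

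**Figure D2:**
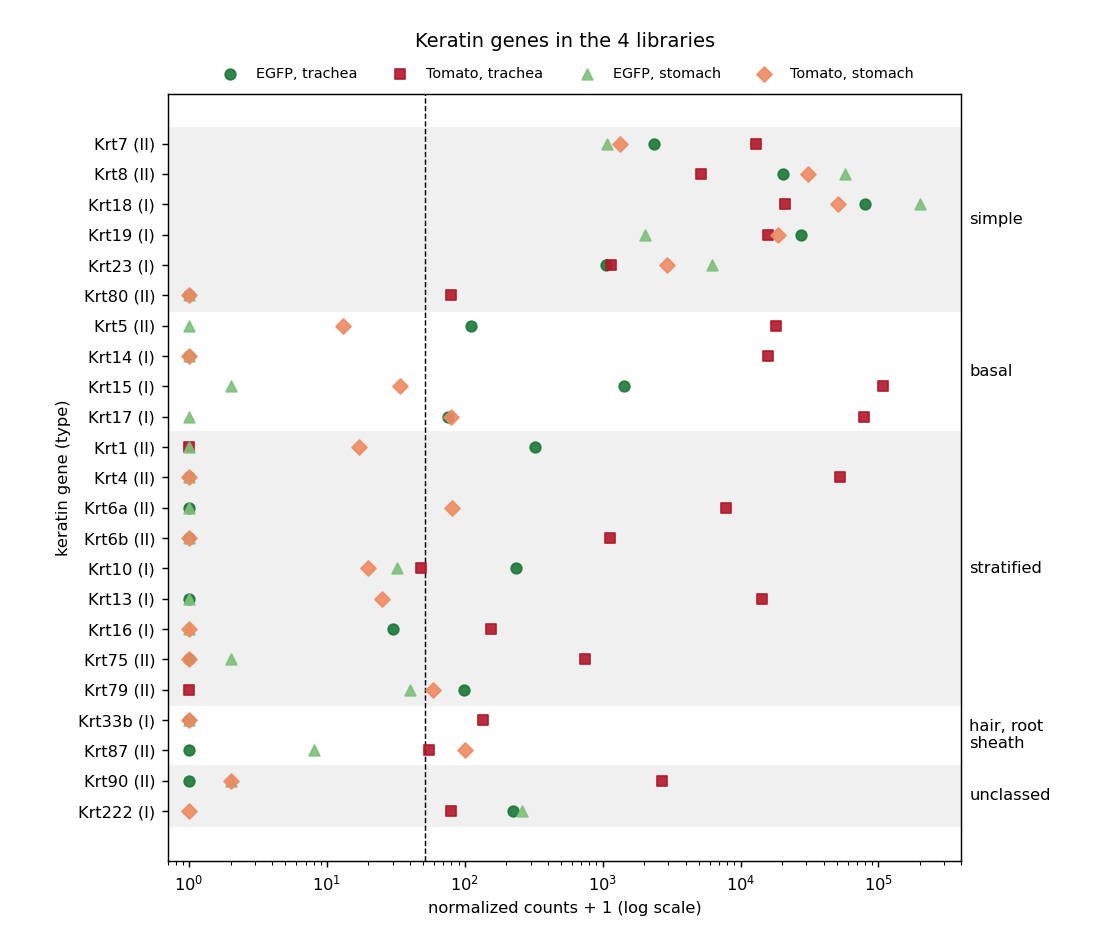
Normalized counts plus 1 (log axis) of the 23 keratin genes that reached 50 in at least 1 library, by class, with their type in brackets, 1 point per library and a dashed line at the minimum of 50. Points at 1 are genes listed at 0 and can lie on top of each other, and the 4 basal keratins lie farthest to the right in tracheal Tomato-positive cells.

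The 4 basal keratins were all high in tracheal Tomato-positive cells and far lower elsewhere. Krt15, a type I keratin of basal cells, stood at 108030 normalized counts there, the highest keratin value of that library, against 1436 in tracheal EGFP-positive cells, 1 in gastric EGFP-positive and 33 in gastric Tomato-positive cells. Krt17, a type I keratin of basal and injured epithelia, stood at 79085 in tracheal Tomato-positive cells and at 74, 0 and 79 in the other libraries, taken in the same order. The second of these was thus nearly absent outside 1 library, while the first was still measurable in tracheal EGFP-positive cells. Krt5, the type II keratin of basal cells, stood at 18168 against 109, 0 and 12. Krt14, the type I partner of Krt5, stood at 15835 and was listed at 0 in the other 3 libraries.

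In the trachea the EGFP library was 75.2-fold lower for Krt15 (70.4 to 80.4), 167-fold lower for Krt5 (131 to 214) and 1069-fold lower for Krt17 (800 to 1458). For Krt14 it was at least 3277-fold lower, computed against a floor of 3 reads in the EGFP library, which is worth 4.83 normalized counts. The basal keratins were thus not lower by a common factor. EGFP-positive cells held 1.33% of the Tomato level of Krt15, 0.60% of that of Krt5 and 0.0936% of that of Krt17, and these values rest on an estimated 68 reads for Krt5 and 46 for Krt17. All 4 measured genes of a list of 5 other basal cell markers were lower as well, with sums of 1145 in EGFP-positive and 58990 in Tomato-positive cells, and the basal cell regulator Trp63 was at 0 and 1143. All 3 club cell markers, whose sums are given above, were lower too. Of all measured genes of the trachea, 32.4% were lower by 4-fold or more in EGFP-positive cells. Whether carry-over of Tomato-positive cells contributes to Krt15, Krt5 and Krt17 in the EGFP library was not tested. In these bulk samples fewer cells of a type and less RNA per cell cannot be told apart.

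Keratins of stratified epithelia fell into 2 sets in the trachea, those higher in the Tomato library and those higher in the EGFP library. To the first belonged Krt4, the type II keratin of moist suprabasal layers, with 52247 normalized counts in tracheal Tomato-positive cells and 0 in the other 3 libraries. Its type I partner Krt13 stood at 14217 there, at 0 in both EGFP libraries and at 24 in gastric Tomato-positive cells. The EGFP library of the trachea was at least 10814-fold lower for Krt4 and at least 2943-fold lower for Krt13.

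Krt6a, a type II keratin of injured and rapidly renewing epithelia, stood at 7831 normalized counts in tracheal Tomato-positive cells, at 80 in gastric Tomato-positive cells and at 0 in both EGFP libraries. Its near copy Krt6b stood at 1125, and at 0 elsewhere. Reads that align to several places were left out by the authors, so Krt6a and Krt6b, as well as Krt14, Krt16 and Krt17, whose sequences are much alike, can be counted too low. Krt6a also shares 24.8% of its exon bases with other genes of GENCODE vM21, which can bear on its level and on the pair ratios that use it. Krt16, the type I partner of Krt6a, was at 154 in tracheal Tomato-positive and 29 in tracheal EGFP-positive cells and at 0 in the stomach. Krt75, a type II keratin of the hair follicle, was at 737 in tracheal Tomato-positive cells, 1 in gastric EGFP-positive cells and 0 in the others.

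The opposite pattern was seen for the skin pair and for Krt79. Krt1, the type II keratin of suprabasal epidermis, stood at 324 normalized counts in tracheal EGFP-positive cells, 16 in gastric Tomato-positive cells and 0 in the other libraries, which made it at least 133-fold higher in EGFP-positive than in Tomato-positive cells of that tissue. Krt10, its type I partner, stood at 233 and 47 in the trachea and at 31 and 19 in the stomach, with a ratio of 4.96 (3.65 to 6.87) in the trachea. Krt79, a type II keratin of the upper hair follicle, stood at 97 and 0 in the trachea and at 39 and 58 in the stomach. It was at least 40-fold higher in tracheal EGFP-positive cells, whereas the ratio in the stomach was 0.672 (0.463 to 0.988). These levels are low beside those of Krt18, with a share of 0.269% of the keratin level for all stratified keratins in tracheal EGFP-positive cells. Of 16 genes of squamous differentiation and the cornified envelope, 15 were at 0 in that library and 7 in tracheal Tomato-positive cells. In gastric EGFP-positive and Tomato-positive cells 14 and 12 were at 0. Tracheal EGFP-positive cells also had the fewest genes above 0, with 11522 of 48709 against 13555 to 16174 in the other libraries. About 6.91% of the exon bases of Krt10 are shared with another annotated gene.

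Keratins of hair and inner root sheath and the unclassed keratins were low. Of the 23 hair and root sheath genes, 15 were at 0 in all 4 libraries and 2 reached 50 normalized counts. Krt33b, a type I hair keratin, was at 134 in tracheal Tomato-positive cells alone, and Krt87, a type II hair keratin that the table's protein column calls Krt83, was at 54 in tracheal Tomato-positive cells, 100 in gastric Tomato-positive and 7 in gastric EGFP-positive cells. Of the 4 unclassed genes, Krt90 stood at 2689 in tracheal Tomato-positive cells and at 0, 1 and 1 in the other libraries. Krt222 was at 224 and 78 in the trachea and at 257 and 0 in the stomach, and was at least 105-fold higher in gastric EGFP-positive cells. Its ratio in the trachea was 2.87 (2.21 to 3.78), so that EGFP-positive cells of both tissues held the higher level.

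A keratin was called when log2(EGFP/Tomato), with 1 added to both values, was 2 or more or -2 or less, which is 4-fold, and the higher library held at least 50 normalized counts. With 1 library per group this is a rule of size and no test. In the trachea 18 of 23 measured keratins passed it, 3 higher and 15 lower in EGFP-positive cells, where 57.6% of all 10523 measured genes passed, 25.2% higher and 32.4% lower. The 3 higher genes were Krt1, Krt10 and Krt79, and the 15 lower genes included all 4 basal keratins, 6 of 9 measured stratified keratins and the simple keratins Krt7 and Krt80. The median log2 ratio of the keratins was -6.23 against -0.32 for all genes, or -4.01 with genes at 0 set to their bound. Krt8 and Krt18 lay just under the limit, at log2 ratios of 1.97 and 1.93. When the libraries were scaled to the same total, which adds 0.58 to each log2 ratio in the trachea, Krt8, Krt18 and Krt222 passed as higher and Krt7, Krt16 and Krt87 no longer passed as lower, so that 6 keratins were higher and 12 lower.

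In the stomach 5 of 10 measured keratins passed, 1 higher and 4 lower in EGFP-positive cells, where 37.2% of 11094 genes passed, 14.8% higher and 22.4% lower. Krt222 was the higher gene. Krt19 was the lower gene with the highest level, and the other 3 were low in both libraries, with Krt17 at 0 and 79 normalized counts, Krt6a at 0 and 80 and Krt87 at 7 and 100. The median log2 ratio of the keratins was -0.45 against -0.15 for all genes, a smaller gap than in the trachea, although over fewer measured keratins. Scaled to the same total, Krt18 passed as well, which gave 2 higher and 4 lower keratins.

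**Figure D3:**
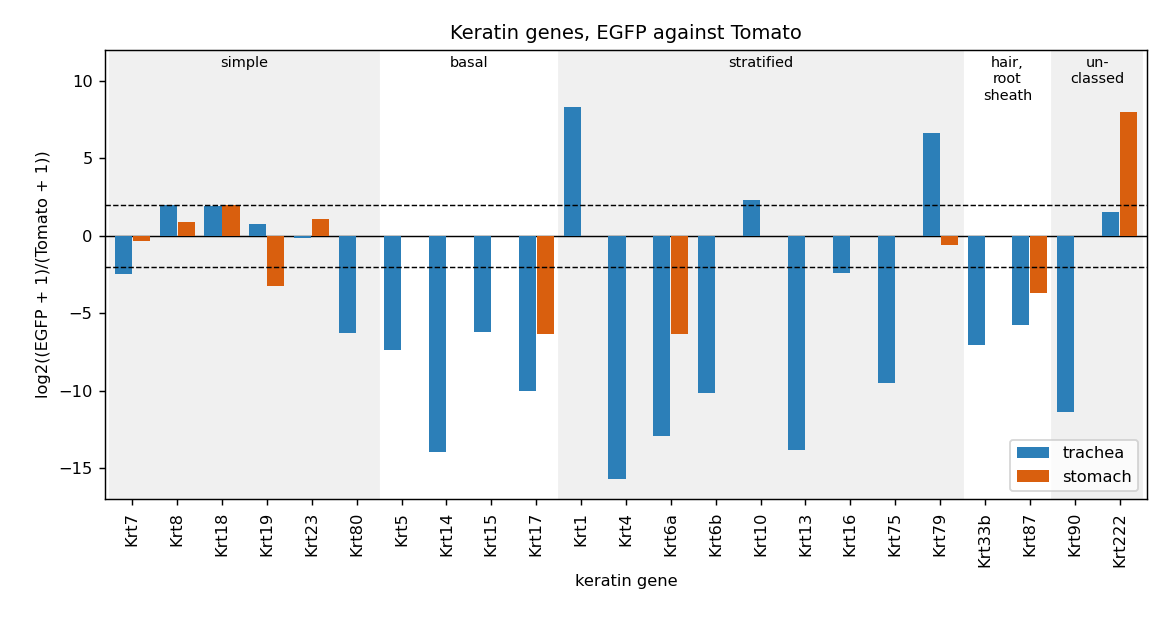
log2 of EGFP over Tomato, with 1 added to both values, for the measured keratin genes of the trachea (blue) and the stomach (orange), by class, 1 library per sort and tissue, with dashed lines at 4-fold. Bars of genes at 0 in a library depend on the added 1. Krt8 and Krt18 were higher in EGFP-positive cells of both tissues, Krt19 and Krt79 pointed in opposite directions, and the 4 basal keratins lay between -13.95 and -6.23 in the trachea.

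Between tissues, tracheal EGFP-positive cells were higher than those of the stomach for 6 and lower for 1 of 12 measured keratins, where 48.1% of 10337 genes passed, 19.8% higher and 28.3% lower. The 6 were Krt1, Krt5, Krt10, Krt15, Krt17 and Krt19, and the lower gene was Krt23. Krt15 stood at 1436 against 1 normalized count, a ratio with a counting interval from 327 upwards, and Krt10 was 7.52-fold higher (5.32 to 11.1). Krt8, Krt18 and Krt7 stayed under the limit, with Krt7 2.21-fold higher (2.05 to 2.38) in the trachea.

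In Tomato-positive cells 15 of 21 measured keratins were higher and 2 lower in the trachea, where 48.2% of 11338 genes passed, 20.3% higher and 27.9% lower. Krt15 was 3274-fold, Krt5 1514-fold, Krt17 1001-fold, Krt13 592-fold and Krt6a 97.9-fold higher in the trachea, and Krt7 9.57-fold. The lower genes were Krt8 and Krt79, of which Krt79 no longer passed with libraries scaled to the same total. The median log2 ratio of the measured keratins was 7.08 (5.98 with genes at 0 set to their bound) against -0.11 for all genes, whereas in EGFP-positive cells it was 2.08 (2.11) against -0.16. Each library enters both a sort and a tissue comparison, so these comparisons are not independent of each other.

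The sort was tested over both tissues with limma, with the tissue as a block and 1 residual degree of freedom. Its standard errors (SE) followed the trend of variance with level over all genes and not the spread of each keratin between tissues. With Benjamini-Hochberg adjustment 3 of the 23 keratins passed, where 2.33% of all 13023 genes did. Krt18 was higher in EGFP-positive cells by 1.95 ± 0.36 (SE) on the log2 scale (limma, adjusted p = 1.65e-05). Krt17 fell by 8.18 ± 1.81 (limma, adjusted p = 0.000800) and Krt15 fell by 5.16 ± 1.43 (limma, adjusted p = 0.0176). Each of the 3 had the same direction in both tissues. Krt6a, Krt8 and Krt13 missed the threshold, with limma adjusted p of 0.0531, 0.0834 and 0.0938. At an unadjusted p below 0.05, 9 keratins passed, against 11% of all genes. Under other settings limma called between 0 and 5 keratins, and it called none when variances were moderated without a trend, where 6 passed at an unadjusted p below 0.05, so these calls depend on how the variance is modelled.

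Type I transcripts exceeded type II transcripts in every library. Summed per kb of exon, the type I to type II ratio was 6.60 in tracheal EGFP-positive and 3.62 in tracheal Tomato-positive cells, and 4.95 and 2.96 in those of the stomach. Without the leading keratin of each library, Krt15 in tracheal Tomato-positive cells and Krt18 in the others, the ratios were 1.51, 2.17, 0.177 and 0.750. For Krt18 to Krt8 alone the ratio was 5.33 and 5.47 in the trachea and 4.8 and 2.25 in the stomach, so 3 libraries lay between 4.8 and 5.47 and gastric Tomato-positive cells lower. Krt19 to Krt8 ranged more widely, with 1.41 and 3.23 in the trachea and 0.0378 and 0.640 in the stomach. In gastric EGFP-positive cells Krt18 was thus the only type I simple keratin near or above the level of Krt8: Krt23, the next type I gene, stood at 3954 normalized counts per kb against 28970 for Krt8.

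Among the other pairs, Krt14 and Krt5 stood at nearly equal levels in tracheal Tomato-positive cells, with a ratio of 1.09, while Krt15 exceeded Krt5 by 7.39-fold and Krt17 exceeded Krt6a by 15.7-fold. Krt13 lay below Krt4, at a ratio of 0.319, and Krt16 below Krt6a, at 0.0304. In tracheal EGFP-positive cells Krt15 to Krt5 was 16.4 with Krt14 at 0, and Krt10 to Krt1 was 1.5 per kb of exon but 0.762 per kb of coding sequence. Krt19 to Krt7 was 44.0 and 4.68 in the trachea and 7.25 and 53.2 in the stomach. Krt7 has 7049 annotated exon bases of which 1371 are coding, and per coding length the same ratios were 13.1, 1.4, 2.16 and 15.9.

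**Figure D4:**
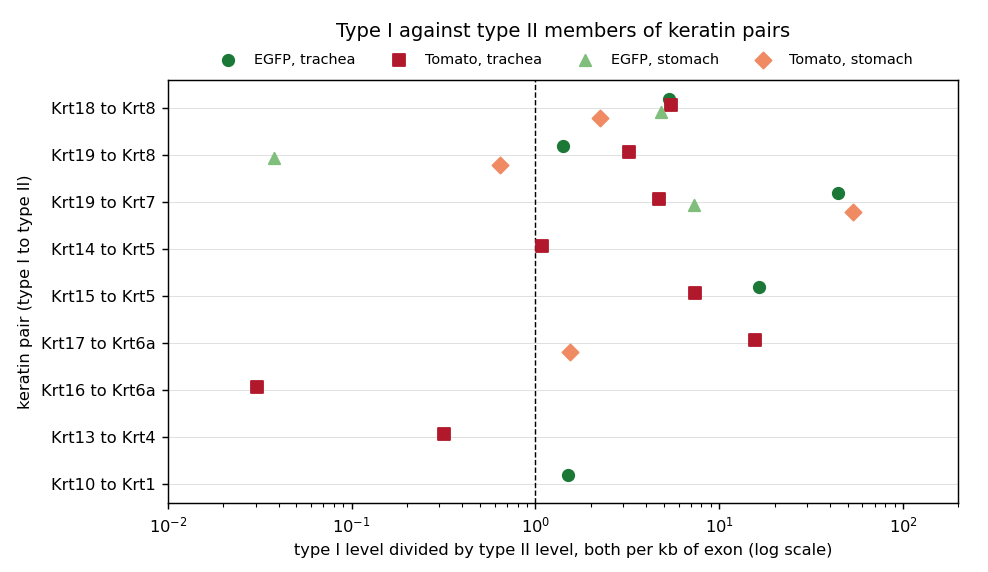
Level of the type I gene divided by that of the type II gene, both in normalized counts per kb of exon (log axis), for each keratin pair and library in which both genes held at least 50 normalized counts, with a dashed line at equal levels. Krt18 to Krt8 stayed between 2.25 and 5.47 in the 4 libraries, whereas Krt19 to Krt8 spread from 0.0378 to 3.23.

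Neighbouring keratin genes differed in their pattern. Krt13, Krt15, Krt19, Krt9, Krt14, Krt16 and Krt17 follow each other on the minus strand within 143.703 kb (GRCm38, chr11:100117327-100261029). Of these, Krt13, Krt14, Krt15, Krt16 and Krt17 were highest in tracheal Tomato-positive cells, Krt19 was highest in tracheal EGFP-positive cells and held at least 2033 in all 4 libraries, and Krt9 was at 0 throughout. Krt8 and Krt18, at the end of the type II cluster, were both highest in gastric EGFP-positive cells.

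Genes whose products anchor keratin filaments were described from a list of 19 desmosome and hemidesmosome genes. In the trachea 0 of 14 measured genes were higher and 7 lower in EGFP-positive cells, beside 25.2% higher and 32.4% lower among all measured genes, and in the stomach 0 of 11 were either, beside 37.2% of all. Col17a1, the hemidesmosomal collagen of basal cells, stood at 0 and 2768 normalized counts in the trachea and at 0 in both stomach libraries. The desmosomal cadherin Dsc2 stood at 11 and 4619 in the trachea and at 874 and 656 in the stomach, whereas Dsg2, the desmosomal cadherin of simple epithelia, stood at 3742 and 1595 in the trachea and at 3571 and 2268 in the stomach. The direction of Dsg2 was thus that of Krt8 and Krt18, and that of Col17a1 and Dsc2 in the trachea that of the basal keratins. Other genes of the list went both ways in the trachea. Itga6 (382 and 171) and Dst (1945 and 1231) were higher in EGFP-positive cells. Itgb4 (21 and 1498), Ppl (5 and 587), Perp (1483 and 18434) and Jup (720 and 3020) were lower.

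Among 15 other intermediate filament genes, 3 of 5 measured were higher and 2 lower in tracheal EGFP-positive cells, beside 25.2% and 32.4% of all measured genes, and 0 of 6 were higher and 4 lower in the stomach, where 14.8% and 22.4% of all measured genes were. The 3 higher genes of the trachea were Bfsp1, at 224 and 0 normalized counts, Nefl, at 150 and 0, and Lmnb2, at 312 and 2. The mesenchymal filament gene Vim stood at 0 and 2377 in the trachea and at 63 and 2097 in the stomach. The sum of 5 fibroblast markers moved with it, at 475 and 25551 in the trachea and 254 and 25998 in the stomach, with Col1a1, Col1a2 and Lum at 0 in tracheal EGFP-positive cells. That of 5 myeloid markers was 527 and 44437 in the trachea and 83 and 12656 in the stomach, and the part of these cells in the keratin values was not tested. Of the 16 squamous differentiation and envelope genes, 0 of 5 measured were higher and 4 lower in tracheal EGFP-positive cells, and 0 of 2 were higher and 2 lower in the stomach, where 32.4% and 22.4% of all measured genes were lower. Sprr1a, an envelope precursor, stood at 0 and 3706 in the trachea and at 1411 and 15535 in the stomach, so it was high in gastric Tomato-positive cells, where Krt5, Krt14 and Krt13 were at 12, 0 and 24.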

How the data were processed

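RNA-seq libraries were prepared by the authors with a SMART-Seq v4 kit from sorted cells pooled from 3 mice. Reads trimmed with Reaper were mapped by the authors to GRCm38 (STAR 2.4.0a) and counted over exons (featureCounts 1.4.5-p1). Reads shared by genes or with several alignments were dropped, so near-identical genes lose reads. The authors deposited these data as a signal, the normalized count, in whole numbers. The origin of the library factors is not given in the sources used. A factor moves all log2 ratios of a comparison together.

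Keratin genes were selected by symbol and classed as simple, basal, stratified, hair and inner root sheath or unclassed. The members and lists were chosen with earlier results of these data known. Named are all keratins at 50 or more normalized counts in a library and the members of known pairs. The worth of 1 read, 0.786 to 1.61 normalized counts per library, was estimated from gaps between low values, and 3 reads served as floor. Exact binomial 95% intervals were computed from the estimated reads. Levels between genes were divided by exon length (GENCODE vM21, GRCm38). limma 3.58.1 (R 4.3.3) was fitted to log2(normalized count + 1) of genes at 50 or more in any library, eBayes with trend, tissue as a block. Libraries of 1 group had no replicates, so the residual of a gene is the gap in its sort difference between tissues. The moderated errors followed the trend over all genes rather than this gap. Krt19, with log2 ratios of 0.78 and -3.21 in trachea and stomach, had an error of 0.54. Krt18, with 1.93 and 1.97, had an error of 0.36. The limma errors and p-values therefore do not measure the spread of each keratin between tissues. Scripts were tested on simulated data. Pseudocount, minimum, scaling and length were varied. Tissues follow the sample titles. Reporter transcripts were not analysed here.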

Additional observations from a re-analysis of the deposited data

Results flagged for a closer look

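The difference between sorts pointed in opposite directions in the 2 tissues for 3 keratins measured in both, and with 1 library for each sort and tissue these differences were not tested. For Krt19 the log2(EGFP/Tomato) was higher in the trachea than in the stomach by 3.99. For Krt79 it was higher in the trachea by 7.18, a value that depends on the added 1 because Krt79 was at 0 in Tomato-positive cells of the trachea. For Krt23 the value of the trachea minus that of the stomach was -1.19, and the counting interval of its ratio in the trachea included 1. With libraries scaled to the same total the log2 ratio of Krt23 in the trachea was 0.46, so that both tissues then had the same direction.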

How the results depend on the processing

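No paired analysis was possible because each group held 1 library without a replicate number; the limma fit pairs the sorts within tissue. With a pseudocount of 0.1 or 10, all 66 values of named keratins kept their direction and side of 4-fold. They also did so with median-of-ratios factors. These factors were nearly equal, at 1.040 to 1.046 over the libraries, so this setting could hardly move a log2 ratio. Removing the minimum could not change these 66 values, since each had at least 50 normalized counts in its higher library. Scaling to the same total removed 4 calls and added 4. With a minimum of 500 the calls were 11 (trachea) and 1 (stomach) between sorts and 3 between EGFP libraries, since fewer genes were measured, and with no minimum 10 in the stomach. limma called 1 keratin with a pseudocount of 0.1, 5 with 10, and 0 with no minimum (7 at unadjusted p under 0.05), with a minimum of 500 (3) or without trend (6), and the cause was not tested. Listed as EGFP and Tomato in the trachea, then in the stomach, the share of simple keratins was 98.1%, 15.7%, 99.9% and 99.6% not divided by length, 98.3%, 16.9%, 99.8% and 99.6% per coding length, and 95.6%, 21.1%, 99.7% and 99.3% without the highest keratin. The type I to type II ratio was 4.73, 2.53, 3.60 and 2.24 not divided by length, 5.52, 3.0, 4.17 and 2.62 per coding length, and 1.51, 2.17, 0.177 and 0.750 without the highest keratin. At 3 reads the floor was 2.36 to 4.83 normalized counts, and lower values rest on 1 or 2 reads.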
